A study of Xenopus tropicalis with 4 samples.

Results

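foxa1, ddc and chga are genes of the small secretory cells, a cell type of the Xenopus larval epidermis that releases serotonin between the multiciliated cells (MCCs). They are 3 of the 34178 gene identifiers in the deposited counts and of the 19372 genes that could be tested. Their identifiers were found by the names that the study's gene tables give (gene6484 for foxa1 and gene631 for chga, both on chromosome 8, and gene21795 for ddc on chromosome 6 of the X. tropicalis assembly v9.1). The genes were chosen with the H1H2Mo to CoMo difference already known. That difference is therefore described below and not tested for them.

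The libraries come from X. tropicalis animal caps (ACs), explants of prospective ectoderm that form an epidermis in culture, at stage NF16 (neurula). Embryos had been injected with translation-blocking morpholinos against suv4-20h1 and suv4-20h2 together (H1H2Mo, 2 libraries) or with a standard control morpholino (CoMo, 2 libraries), and each library holds the RNA of pooled ACs. SUV4-20H1 and SUV4-20H2 convert monomethylated lysine 20 of histone H4 to its di- and trimethylated states. The labels number the libraries as replicates without naming separate clutches, so p-values measure only the spread between these samples.

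foxa1 encodes a forkhead transcription factor that opens chromatin in many secretory and endodermal tissues and that specifies small secretory cells in the Xenopus epidermis. ddc encodes aromatic L-amino acid decarboxylase. This enzyme makes serotonin from 5-hydroxytryptophan and dopamine from L-DOPA, and so serves the serotonin and the catecholamine pathways alike. chga encodes chromogranin A, an acidic protein that is packed with amines into dense-core granules of endocrine and neuroendocrine cells. Serotonin from the small secretory cells is known to control the beat of the neighbouring cilia.

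Between 17054150 and 47407319 read pairs per library lay on genes, and CoMo replicate 2 was the deepest. CPM below are reads per 1000000 gene reads after edgeR's TMM scaling of the libraries. The transcript of suv420h1 had 89.3 and 82.4 CPM in the H1H2Mo libraries, against 109.2 and 123.2 CPM in the CoMo libraries (edgeR's quasi-likelihood test, log2 fold change -0.44 ± 0.31 standard error, adjusted p = 0.393). kmt5c, the gene of SUV4-20H2, had 147.4 and 171.5 CPM in H1H2Mo and 47.7 and 58.2 CPM in CoMo (log2 fold change 1.59 ± 0.33 standard error, adjusted p = 0.00549 by the same edgeR test). Morpholinos block translation, so these transcripts do not check the knockdown.

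foxa1, ddc and chga were expressed in both CoMo libraries and, as known when they were chosen, were far lower in both H1H2Mo libraries. chga had 16.8 and 34.1 CPM in H1H2Mo replicates 1 and 2, from 466 and 612 reads. In CoMo replicates 1 and 2 it had 1375 and 990.1 CPM, from 22576 and 43482 reads. The H1H2Mo mean was 25.5 ± 12.3 CPM and the CoMo mean 1183 ± 272.5 CPM (SD, n = 2 each), so 2.15% of the CoMo level was left. The lower CoMo library still had 29.0 times the level of the higher H1H2Mo library. The log2 fold change of H1H2Mo over CoMo was -5.54 (standard error 0.50), and 52 of the 19372 genes tested had a lower one.

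ddc was hardly detected in ACs with the suv4-20h morpholinos. It had 9 and 14 reads in H1H2Mo replicates 1 and 2, or 0.324 and 0.781 CPM, with 95% counting intervals of 0.148 to 0.615 and 0.427 to 1.31 CPM. In CoMo replicates 1 and 2 it had 1266 and 1166 reads, or 77.1 and 26.55 CPM. The libraries of each group differed from each other, by 2.41-fold in H1H2Mo and 2.91-fold in CoMo. The means were 0.552 ± 0.323 CPM in H1H2Mo and 51.8 ± 35.8 CPM in CoMo (SD, n = 2 each), and 1.07% of the CoMo level was left. The log2 fold change was -6.60 (standard error 0.64). Between single libraries it ran from -5.09 (H1H2Mo 2 over CoMo 2) to -7.89 (H1H2Mo 1 over CoMo 1). Of the genes tested, 13 had a lower value.

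foxa1 had the smallest difference of these genes and varied least between replicates. It had 110 and 47 reads in the H1H2Mo libraries, or 3.96 and 2.62 CPM, against 923 and 3086 reads, or 56.2 and 70.3 CPM, in the CoMo libraries. The means were 3.29 ± 0.948 CPM in H1H2Mo and 63.25 ± 9.92 CPM in CoMo (SD, n = 2 each), with 5.2% of the CoMo level left. The log2 fold change was -4.25 (standard error 0.40), between -3.83 and -4.74 over the pairs of single libraries, and 251 of the genes tested had a lower value. The median log2 fold change of all genes tested was 0.05. In bulk ACs, fewer cells of a type and less RNA per cell cannot be told apart, which holds for each difference given here.

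**Figure D1:**
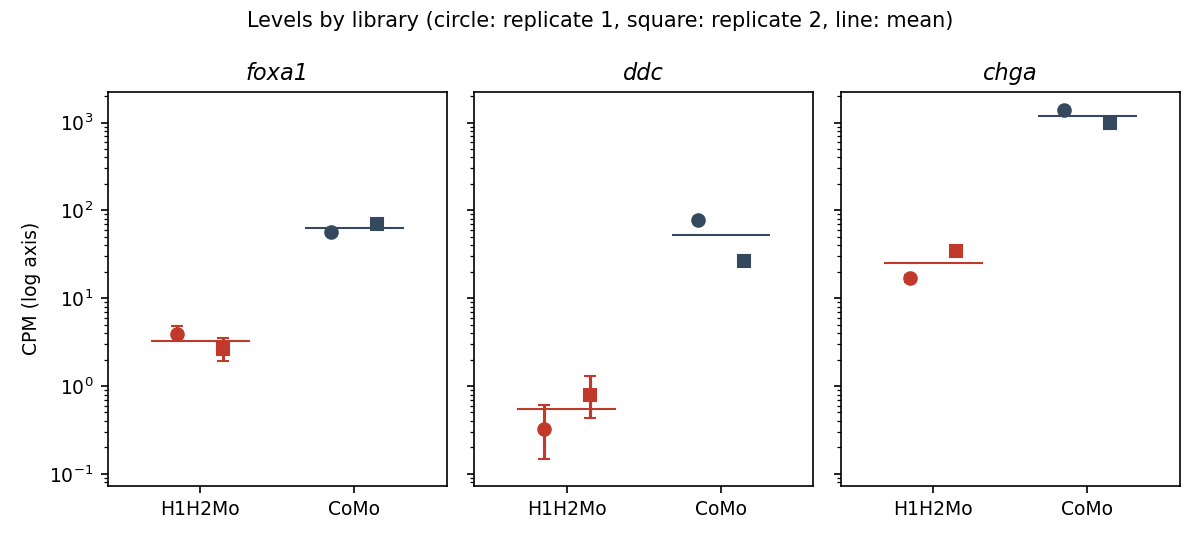
CPM of foxa1, ddc and chga (log axis) in each H1H2Mo and CoMo library, with 95% Poisson intervals that cover counting error only and a line at the mean of each group. For each gene both H1H2Mo points lie below both CoMo points. The genes were chosen with this difference known, and the share of all genes so separated is not given here. The CoMo points of ddc (77.1 and 26.55 CPM) are the farthest apart.

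The counts above are of reads on the strand of the gene. On the opposite strand, chga had 4 and 2 reads in H1H2Mo and 9 and 35 in CoMo, and foxa1 had 3 and 0 in H1H2Mo and 1 and 0 in CoMo. ddc had 3 and 0 in H1H2Mo and 0 and 2 in CoMo, so that only in H1H2Mo 1, with 9 reads on its own strand, were opposite reads a sizeable part. Multimapping pairs, 6.8% to 8.1% of each library, were counted for no gene. A stretch that foxa1 has in common with its paralogs would thus count for none of them.

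The 3 genes did not keep their proportions between libraries. H1H2Mo replicates 1 and 2 had 236.1 and 76.8 foxa1 reads per 1000 chga reads, against 40.9 and 71.0 in CoMo replicates 1 and 2. The ratio was highest in H1H2Mo 1, while H1H2Mo 2 and CoMo 2 had overlapping counting intervals (55.8 to 103.4 and 68.4 to 73.6). For ddc, the H1H2Mo libraries had 19.3 and 22.9 reads per 1000 chga reads and the CoMo libraries 56.1 and 26.8. The intervals of both H1H2Mo libraries held the value of CoMo 2 and lay below that of CoMo 1. The number of ddc reads per 1000 foxa1 reads was 81.8 and 297.9 in H1H2Mo, against 1372 and 377.8 in CoMo. The interval of H1H2Mo 2 (151.5 to 550.3) held the value of CoMo 2. In each of these ratios the intervals of H1H2Mo 2 and CoMo 2 overlapped. A ratio within a library does not depend on the scaling of the libraries. It compares 1 gene pair between libraries and is no measure of which gene is the more abundant, since reads also follow transcript length.

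**Figure D2:**
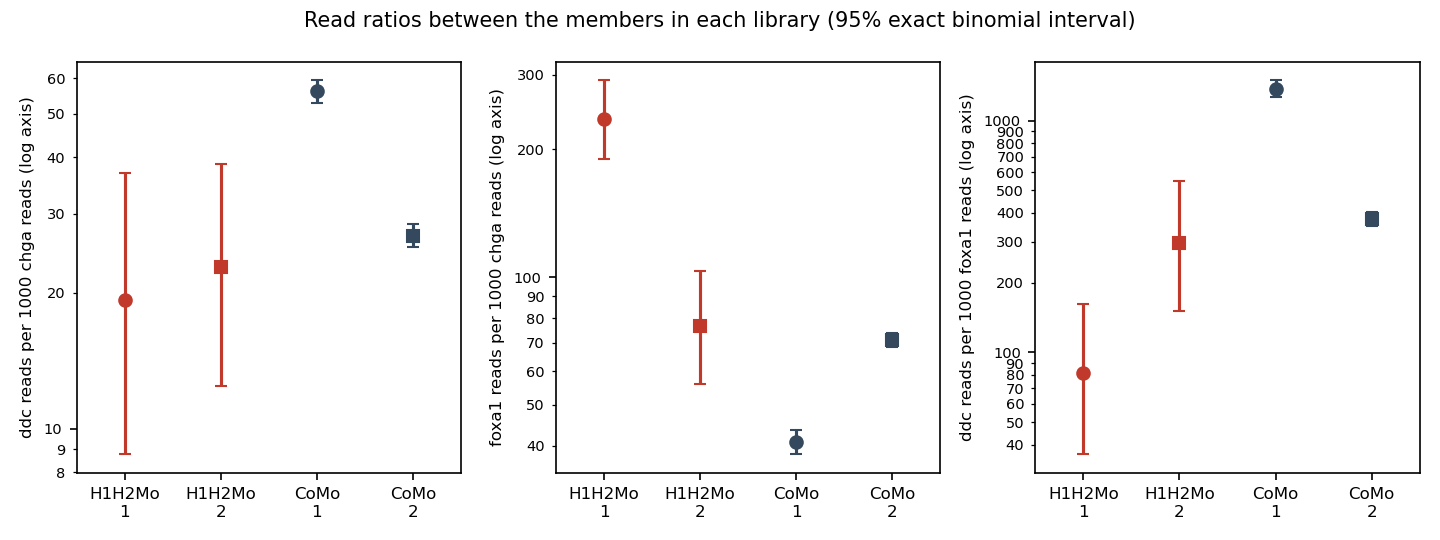
Reads of one gene per 1000 reads of another (log axes) in the H1H2Mo and CoMo libraries, with 95% exact binomial intervals that cover counting error only. The foxa1 to chga ratio is highest in H1H2Mo 1 (236.1) and both ratios with ddc are highest in CoMo 1 (56.1 and 1372).

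The levels of the 3 genes were also compared between the libraries of each condition. On the log2 scale, H1H2Mo 1 over H1H2Mo 2 was 0.60 for foxa1, -1.27 for ddc and -1.02 for chga. The monoamine and sympathoadrenal genes went both ways. dbh (-1.78) and phox2a (-0.62) were lower in H1H2Mo 1, and hand2 (-0.05), slc6a3 (0) and th (0.09) were about level. comt (2.35), gch1 (1.58), slc18a2-like.1 (1.2), slc18a1 (0.88) and gchfr (0.76) were higher in H1H2Mo 1. In H1H2Mo the counting intervals of the replicates overlapped for foxa1 (3.256 to 4.775 and 1.926 to 3.486 CPM). They also overlapped for ddc (0.148 to 0.615 and 0.427 to 1.31 CPM), but not for chga. Within CoMo the order of foxa1, chga and ddc was the reverse. CoMo 1 had 2.91 times the ddc level of CoMo 2 and 1.39 times its chga level, but 0.80 times its foxa1 level. Over the 12643 genes with a CoMo mean of at least 50 counts, the middle range of this log2 ratio ran from -0.36 to 0.28 between the quartiles. The values were -0.32 for foxa1, which lies within that range, 0.47 for chga and 1.54 for ddc, and 1.08% of these genes had a higher ratio than ddc. Of the 5 sympathoadrenal markers, 4 were higher in CoMo 1 (median log2 ratio 0.98), among them th at 2.59-fold, dbh at 1.97-fold and hand2 at 1.90-fold, while phox2a was at 0.845-fold. The monoamine list as a whole had no such lean, with 5 of 9 genes higher in CoMo 1 and a median log2 ratio of 0.01. Its member slc6a3 was at 1.63-fold, comt at 1.00-fold, gch1 at 0.878-fold, slc18a1 at 0.795-fold and gchfr at 0.776-fold. The neural markers tubb3, ncam1 and elavl3 were also higher in CoMo 1, by 8.94-, 4.14- and 3.19-fold, while zic1 was at 0.98-fold. A higher level in CoMo 1 was also seen for 9 of 11 ionocyte markers (median log2 ratio 0.34) and 3 of 5 goblet cell markers (median 0.79). Of the MCC markers, only 2 of 7 were higher in CoMo 1 (median -0.37). The median over the 12643 genes was -0.03. Of the other lists, 7 of 9 pluripotency markers (median 0.11), 7 of 10 exocytosis genes (0.1) and 3 of 5 granin genes (0.39) were higher in CoMo 1. Of the fate factors 2 of 5 were (-0.43), and tp63 (-0.82) and sox17a (-1.31) were lower. A lean to CoMo 1 was thus found in some lists and not in all, and not only in those of cell types. The share of all genes higher in CoMo 1 is not given here. The genes set side by side here were picked from the lists after their values had been seen, and the difference rests on 2 libraries and has no test.

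**Figure D3:**
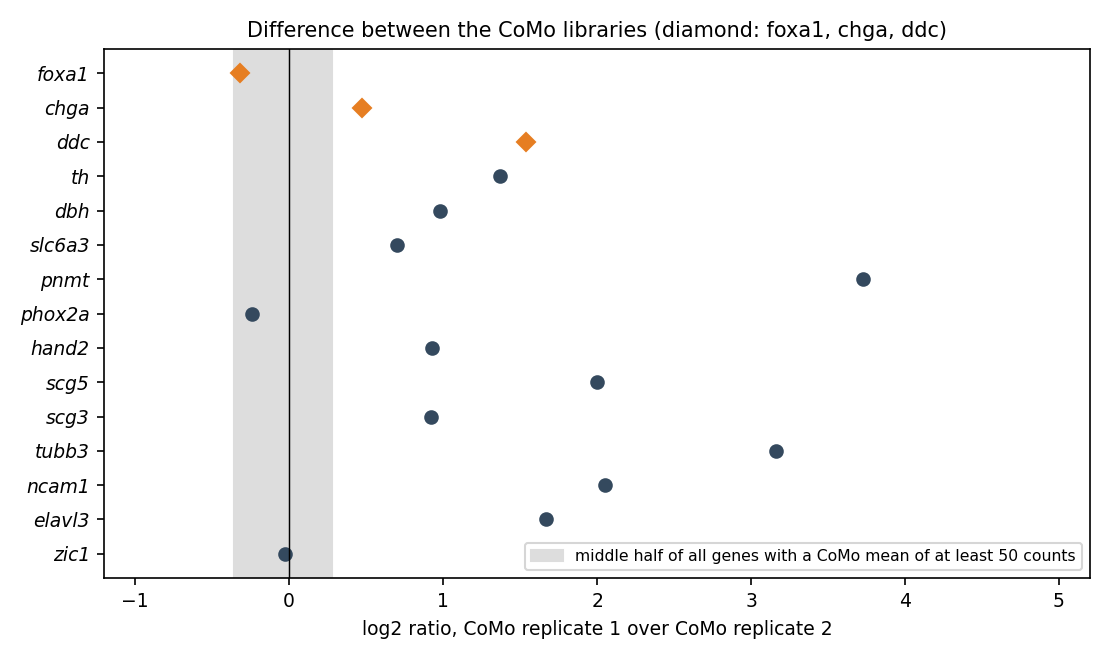
Log2 ratio of CoMo replicate 1 over CoMo replicate 2 for foxa1, chga and ddc (diamonds) and for other genes of amine cells, granules and neurons (circles). The circles were picked after the values had been seen. Not shown are vgf (-1.27), scg2 (-0.39) and cpe (0.39) of the granin list. Of the monoamine list, gchfr (-0.37), slc18a1 and slc18a2-like.1 (-0.33 each), gch1 (-0.19) and comt (0.01) are not shown. The grey band is the middle range of 12643 genes, from -0.36 to 0.28. foxa1 (-0.32) lies inside it and ddc (1.54) outside.

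Names were available for 6391 of the genes tested. They came from the parts at hand of the study's gene tables, which hold the genes of smallest p in each of its comparisons. One of these tables is of the H1H2Mo to CoMo comparison itself. Of the genes it names 98.9% were called, against 16.5% of all genes tested (10.7% lower and 5.83% higher in H1H2Mo), at an adjusted p under 0.05 by edgeR. Of 83 further genes on 4 lists (monoamine synthesis and handling, granins and granule peptide processing, regulated exocytosis, foxa and neuroendocrine fate factors), 29 had an identifier and 28 were tested. 15 fell and 2 rose (60.7%, beside 39.4% of all tested genes with a name), with a median log2 fold change of -1.34. The 16 named by the H1H2Mo to CoMo table were all called. This count, and those of the single lists below, thus largely follow from the naming. Of the 12 named elsewhere only, 1 was called (8.33%, beside 12.6% of all genes named that way). The tables of the injections of PHF8 (a histone demethylase) and LacZ mRNA compare ACs without suv4-20h morpholinos. They name 14 of the listed genes, of which 5 fell and 1 rose (42.9%, beside 23.3% of all genes they name). Of those called, gch1, slc18a1, cpe, syt13 and sytl4 were also named by the H1H2Mo to CoMo table, and only isl1 was not. This count is therefore not free of that naming either.

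Of the monoamine list, 8 genes were tested beside ddc, of which 5 fell, 1 rose and 2 were not called. th, tyrosine hydroxylase, makes the L-DOPA that ddc converts to dopamine. It had 1.66 and 1.56 CPM in H1H2Mo, against 100 and 38.6 CPM in CoMo (log2 fold change -5.42 ± 0.51 standard error, adjusted p = 5.65e-05 from edgeR). dbh makes noradrenaline from dopamine and had 1.33 and 4.57 CPM in H1H2Mo, against 210.1 and 106.4 CPM in CoMo (log2 fold change -5.77 ± 0.60 standard error, adjusted p = 7.37e-05 from edgeR). slc6a3, the dopamine uptake transporter, had 9.51 and 9.48 CPM in H1H2Mo and 298.8 and 183.7 CPM in CoMo (log2 fold change -4.67, adjusted p = 5.1e-05 from edgeR). The calls of th, dbh and slc6a3 did not depend on any single library. In all of them, as in ddc, CoMo 1 was higher than CoMo 2.

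pnmt, which makes adrenaline, had reads in only 2 libraries and was not tested, since the filter asked for reads in 3 of 4. It had 0 reads in both H1H2Mo libraries and 134 and 27 in CoMo 1 and 2. Against a floor of 3 reads in each H1H2Mo library, its mean was at least 31.9-fold lower in H1H2Mo. That bound rests on CoMo 1, and against CoMo 2 alone it was at least 4.46-fold lower. comt, which inactivates catecholamines, fell by 3.18 on the log2 scale, from edgeR's fit. The vesicular amine transporter slc18a1 fell less than ddc or th. It had 261.3 and 141.7 CPM in H1H2Mo, against 495.5 and 623.7 CPM in CoMo (log2 fold change -1.47, adjusted p = 0.0226 from edgeR). Its relative slc18a2-like.1 overlapped between the groups, with 256.2 and 111.4 CPM in H1H2Mo and 222.6 and 279.2 CPM in CoMo (log2 fold change -0.45, adjusted p = 0.507 from edgeR).

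gch1 moved the other way. GTP cyclohydrolase, its product, starts the synthesis of tetrahydrobiopterin, the cofactor of tyrosine and tryptophan hydroxylases, and also feeds pteridine pigments. gch1 had 1121 and 375.3 CPM in H1H2Mo, against 164.4 and 187.1 CPM in CoMo (log2 fold change 2.09 ± 0.48 standard error, adjusted p = 0.0102 from edgeR). Its regulator gchfr had 127 and 74.8 CPM in H1H2Mo and 171.6 and 221 CPM in CoMo, which did not pass the test (log2 fold change -0.96, adjusted p = 0.0924 from edgeR). Without CoMo 1 or without CoMo 2, the calls of gch1, slc18a1 and comt were lost, which left 3 lower genes of this list in either case.

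Of the granin list, 5 genes were tested beside chga, of which 3 fell and 2 were not called. scg5, a chaperone of the prohormone convertase PC2, had 0.252 and 0.112 CPM in H1H2Mo, against 10.6 and 2.64 CPM in CoMo (log2 fold change -5.07, adjusted p = 0.0014 from edgeR). scg3, which holds chromogranin A at the granule membrane in mammals, had 11 and 0 reads in H1H2Mo and 72 and 102 reads in CoMo (log2 fold change -3.91, adjusted p = 0.0168 from edgeR). cpe, a carboxypeptidase that trims prohormones, fell by 2.27 on the log2 scale. scg2 (10 and 0 reads in H1H2Mo, 2 and 7 in CoMo) and vgf (5.98 and 1.90 CPM in H1H2Mo, 1.22 and 2.94 CPM in CoMo) overlapped between the groups. Without CoMo 1 the calls of scg5, scg3 and cpe were lost, and without CoMo 2 those of scg3 and cpe.

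Of 10 exocytosis genes tested, 5 fell and 5 were not called. sytl1, a Rab27 effector, had 35.8 and 29.2 CPM in H1H2Mo, against 287.4 and 349.9 CPM in CoMo (log2 fold change -3.29, adjusted p = 1e-04 from edgeR). The syntaxin stx3, a SNARE protein of apical membrane fusion, had 13.9 and 13.1 CPM in H1H2Mo and 86.8 and 67.65 CPM in CoMo (log2 fold change -2.52, adjusted p = 0.000382 from edgeR). syt13 (-2.52), stx1a (-2.14) and sytl4 (-1.62) fell as well on the log2 scale. The Rab GTPases of secretory vesicles were not called, with log2 fold changes of -1.06 for rab3a, -0.75 for rab27b, -0.26 for rab3d and -0.02 for rab27a. sytl1 and stx3 were called whichever library was left out, and were the 2 genes of this list called without CoMo 1. Without CoMo 2 there were 3.

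Beside foxa1, 5 fate factors were tested, of which 2 fell, 1 rose and 2 were not called. insm2 (log2 fold change -2.38, adjusted p = 0.03) and isl1 (-1.21, adjusted p = 0.0363) fell in edgeR's test. foxa4, the forkhead gene of notochord and floor plate, was called higher (log2 fold change 3.92, adjusted p = 0.0286 from edgeR). It had 262 and 11 reads in H1H2Mo and 10 and 6 reads in CoMo, so that its level was high in H1H2Mo 1 alone. The neuroendocrine factor insm1 overlapped between the groups, with 76.6 and 14.9 CPM in H1H2Mo and 30.2 and 59.2 CPM in CoMo. gata2 had 584.2 and 338.3 CPM in H1H2Mo and 142.9 and 255.3 CPM in CoMo and did not pass the test (log2 fold change 1.21, adjusted p = 0.063 from edgeR). Without CoMo 1 or without CoMo 2 the calls of insm2, isl1 and foxa4 were lost, as was that of foxa4 without H1H2Mo 1 and that of isl1 without H1H2Mo 2.

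**Figure D4:**
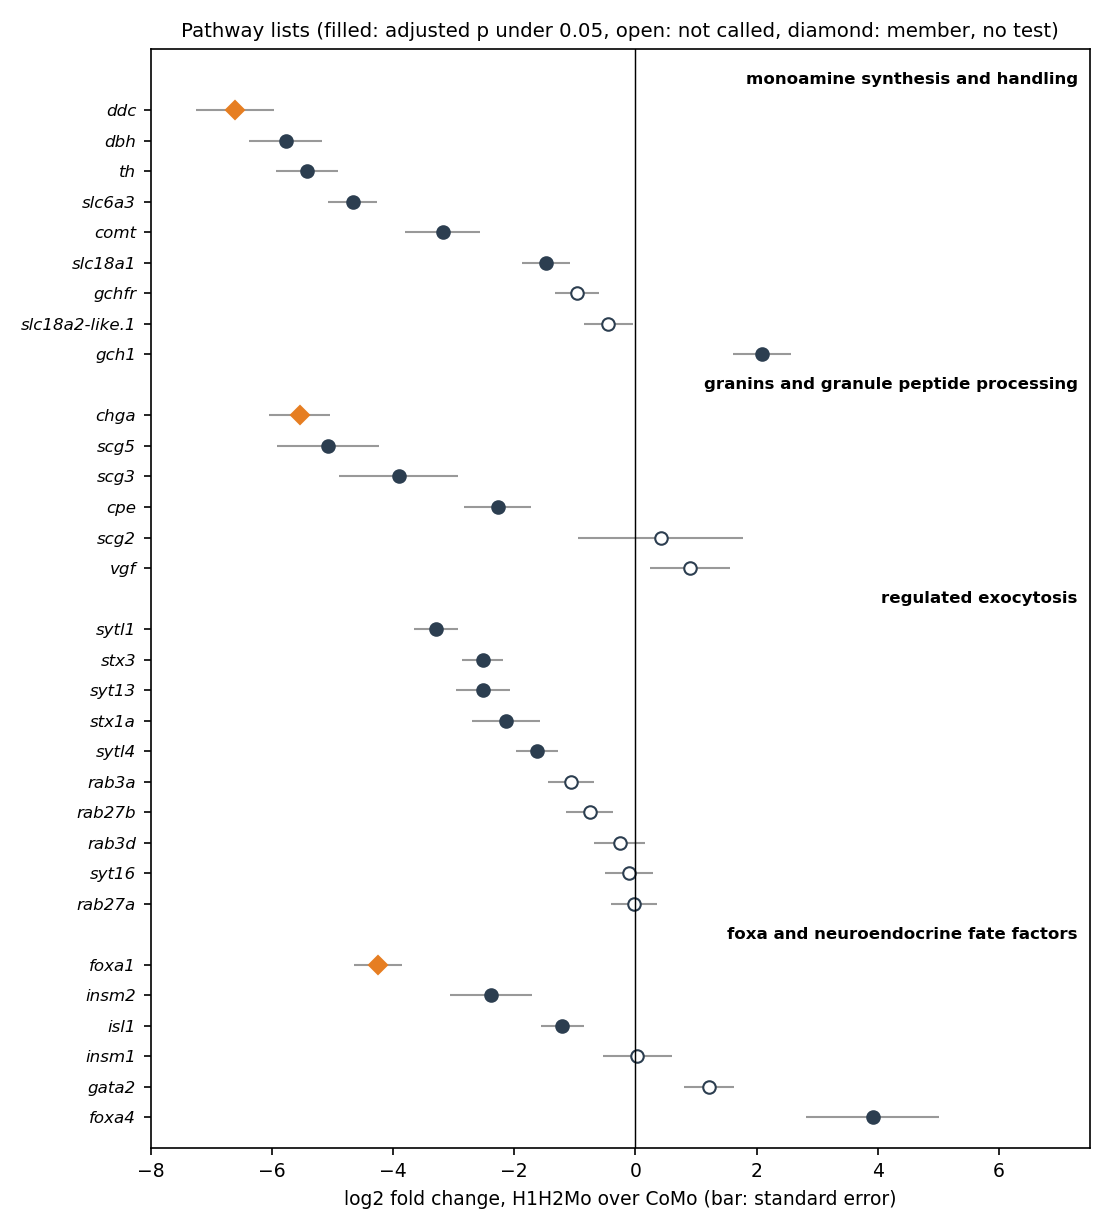
Log2 fold change of H1H2Mo over CoMo, with standard errors, for the tested genes of the 4 lists. Filled circles have an adjusted p under 0.05 in edgeR's test, open circles do not, and diamonds are ddc, chga and foxa1, which are not tested. The values run from -6.60 (ddc) to 3.92 (foxa4).

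The markers at hand do not assign ddc and chga to small secretory cells alone. Of the marker list of that type, foxa1, ddc and chga were measured, while tph1 and slc18a2, which make and pack serotonin, are not analysed here. The sympathoadrenal markers moved with them: phox2a, hand2, th and dbh all fell (4 of 4 tested, with pnmt not tested, log2 fold changes from -5.77 to -2.70). With pnmt included, their summed level was 23.1 to 30.6 CPM in the H1H2Mo libraries, against 452.4 to 834.2 CPM in the CoMo libraries. hand2, a transcription factor of sympathetic neurons, had 12.9 and 13.4 CPM in H1H2Mo and 461.7 and 242.7 CPM in CoMo. Of the 4 neural markers with an identifier, tubb3, ncam1 and elavl3 fell and zic1 rose. The summed level of the 4 was 16.01 to 30.4 CPM in H1H2Mo and 31.6 to 124.5 CPM in CoMo. zic1 alone had 26.2 and 9.20 CPM in H1H2Mo and 3.84 and 3.92 CPM in CoMo. The sum thus mixes genes of opposite direction and is mostly zic1 in H1H2Mo. Each of these genes was named by the H1H2Mo to CoMo table. Of the genes it names 98.9% were called, so that the counts of fallen markers follow from the naming. th, dbh and pnmt are also on the monoamine list and are not further genes. Whether sympathoadrenal or neural cells had a part in the differences of ddc and chga was not tested.

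The marker lists of the other epidermal cell types had median log2 fold changes from -2.24 to -1.40. 4 of 7 MCC markers fell, with a median log2 fold change of -1.41 over the list. The summed level of the 7, which tubb4b dominates, was 1553 to 2030 CPM in H1H2Mo, against 4305 to 5504 CPM in CoMo. tubb4b alone had 1107 and 1185 CPM in H1H2Mo and 3198 and 4368 CPM in CoMo. Of 11 ionocyte markers, 6 fell and dmrt2 rose (median -1.40, summed level 271.2 to 490.3 CPM in H1H2Mo and 596.5 to 832.6 CPM in CoMo). Of 5 goblet cell markers, 3 fell (median -2.24), while the summed level, which otog dominates, overlapped at 946.6 to 2770 CPM in H1H2Mo and 1747 to 2119 CPM in CoMo. The basal marker tp63 fell by 2.01 on the log2 scale. Of 9 pluripotency markers, 5 rose and lin28b fell (median 1.62). The endoderm marker sox17a was not called. Of all genes tested, 10.7% were called lower and 5.83% higher, and of those with a name 39.4% were called. As on the pathway lists, the marker counts largely follow from the naming. The MCC markers foxj1, rfx2 and mci-like, which the H1H2Mo to CoMo table does not name, were not called. The called MCC, goblet cell, basal and pluripotency markers and the 6 lower ionocyte markers were all named by the H1H2Mo to CoMo table, and dmrt2 was the 1 called marker that was not.

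**Figure D5:**
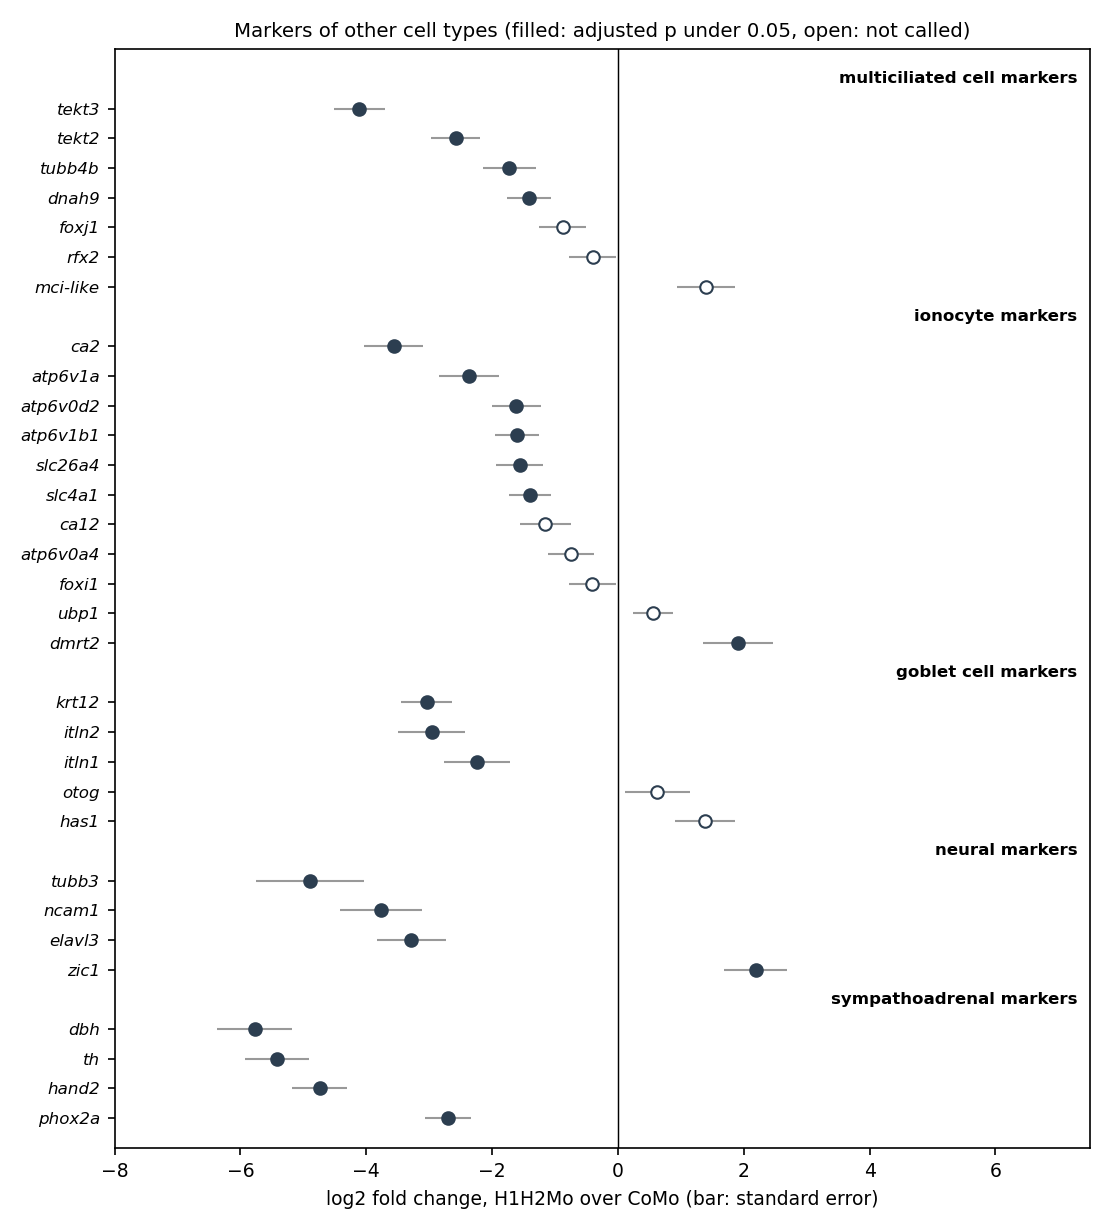
Log2 fold change of H1H2Mo over CoMo, with standard errors, for markers of MCCs, ionocytes, goblet cells, neurons and sympathoadrenal cells. Filled circles have an adjusted p under 0.05 in edgeR's test. The sympathoadrenal markers lie between -5.77 and -2.70, and the MCC markers between -4.11 (tekt3) and 1.40 (mci-like).

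The genes whose levels over the 4 libraries were most like each member were looked up among 5451 other genes with a symbol and a mean of at least 50 counts. The measure was the Euclidean distance of log2 CPM, each gene centred on its own mean. Nearest to foxa1 were adora2a, an adenosine receptor gene (distance 0.24), eef2k, a kinase of elongation factor 2 (0.32), and LOC101731705 (0.39). adora2a had 3.57 and 2.34 CPM in H1H2Mo, against 55.6 and 54.9 CPM in CoMo. Nearest to ddc were spata45 (0.40), dthd1 (0.54) and pp2d1 (0.59), and spata45 had 0.108 and 0.335 CPM in H1H2Mo, against 26.1 and 10.1 CPM in CoMo. Nearest to chga were LOC100488825 (0.13), c17orf105 (0.20) and LOC101730828 (0.23), and LOC100488825 had 2.59 and 5.24 CPM in H1H2Mo, against 194.3 and 155.9 CPM in CoMo. The distances between the 3 members were 1.01 for ddc and chga, 1.85 for foxa1 and chga and 2.69 for foxa1 and ddc. Over 4 libraries the distance includes the H1H2Mo to CoMo difference by which the members were chosen, and nothing is read from it about how the genes are related.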

How the data were processed

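RNA-seq counts of X. tropicalis ACs at NF16 were used, 2 libraries per condition. The study's text speaks of 3 biological replicates, and whether its gene tables rest on further libraries is not given in the sources used here. The authors aligned paired-end reads to assembly v9.1 with STAR 2.7.1a and deposited raw counts per gene. The reverse-strand counts were used, since at least 97.49% of the stranded reads lay there. Tests used genes having reads (1 or more) in 3 of 4 libraries, with edgeR 4.0.16 in R 4.3.3 (TMM, quasi-likelihood test, Benjamini-Hochberg adjustment over all genes tested). Standard errors were derived from that test, as the absolute log2 fold change divided by the square root of its F statistic. They restate the test and are no separate estimate of spread. For foxa1, ddc and chga they are descriptive only. Gene names came from the study's supplementary gene tables, held in part. These also give the authors' fold changes and p-values, which were not used. The members and lists were chosen with earlier results of these data known. Some listed genes are not reported here and were left out of the list counts. Genes were named by these lists, and the nearest genes by distance (prior count of 2). Counting intervals are exact (95%), cover counting error only and do not treat PCR copies apart. The test was tried on simulated data. Alternatives were RLE and upper-quartile scaling, DESeq2 1.42.0, other filters, unstranded counts, the replicate block, thinning and leaving out each library. No sequences were at hand, and coordinates were not used here.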

Additional observations from a re-analysis of the deposited data

How the results depend on the processing

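The log2 fold changes of foxa1, ddc and chga were also computed under 9 other settings and with each library left out. They lay between -4.27 and -4.17, -6.61 and -6.45, and -5.61 and -5.46 over those 9 settings. With each library left out in turn they ranged from -4.59 to -4.0 for foxa1, from -7.30 to -5.61 for ddc and from -6.14 to -5.11 for chga. The library then alone in its group is assumed to vary like the others. Leaving out a library moved the number of genes called most, between 481 (without CoMo 1) and 4375 in all, 455 and 2533 lower, and 26 and 1865 higher. For the lists the numbers lower ranged from 3 to 7 (monoamine), 0 to 3 (granins), 2 to 7 (exocytosis) and 0 to 3 (fate factors). The numbers higher ranged from 0 to 1 for the monoamine list and from 0 to 2 for the fate factors. Of the fate factors, 2 were called higher with RLE or upper-quartile scaling, DESeq2, no filter and the replicate block, the added gene being gata2. With edgeR's filterByExpr 1 was called lower and 0 higher, and after thinning 0 were higher. foxa4 was not called in either case, and the cause was not tested. pnmt was tested and called lower with no filter (log2 fold change -9.83), filterByExpr (-9.85) and unstranded counts (-6.59). It had 0 reads on its own strand in both H1H2Mo libraries. With no filter and filterByExpr it thus passed through its CoMo reads alone, and with unstranded counts only through reads off its own strand. These calls are therefore no support, and the values are no measure of how far pnmt fell. No filter, filterByExpr and unstranded counts each gave 6 lower monoamine genes, pnmt among them. With no filter rab3a was also called lower, which gave 6 lower exocytosis genes. Deviations of same-numbered samples had a correlation of -0.21 over 12536 genes. With 2 libraries per group this cannot show whether the replicate numbers mark pairs. A replicate block gave 3280 called genes, 2990 of them among the 3196, and no other call on the lists changed. A block on crossed pairs, which was added once the data had been seen, gave 4843 called genes (2013 higher) and was run for these counts and the listed genes only. Of the genes nearest to each member, 2 of 3 were the same for foxa1 and ddc with a prior count of 0.5, and 3 of 3 for chga. ddc had 9 and 14 reads in H1H2Mo. Thinning to equal depth left its log2 fold change at -6.55.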
